A study of Mus musculus with 10 samples.

Results

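The genes described here encode proteins that carry vitamin A and its active product: the retinoic acid binding proteins Crabp1 and Crabp2, the fatty acid binding protein Fabp5, the blood carrier Rbp4 and the cell surface receptor Stra6. The members are all probe sets that the platform annotation gives to exactly 1 of these 5 symbols, which gave 5 of the 18193 genes and 6 of the 45037 probe sets in the series, 2 for Fabp5 and 1 for each other gene. The series measured expression in mouse keratinocytes on 10 arrays. Cultured RhoA-KO keratinocytes and cultured Wildtype keratinocytes had 3 arrays each, and freshly isolated RhoA-KO and Wildtype keratinocytes had 2 arrays each. RhoA-KO cells carried the genotype RhoA fl/fl K5 cre and the cells called Wildtype carried RhoA fl/+ K5 cre, so all 4 groups carried the Cre recombinase, driven by the keratin 5 promoter of basal keratinocytes, and the Wildtype cells also carried 1 floxed allele. The labels give skin as the tissue and call the arrays biological replicates without naming animals, ages or time in culture, so p-values measure only the spread between these samples.

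Retinol travels in the blood bound to Rbp4 and enters cells that display Stra6. Cells oxidise it to retinoic acid, which moves through the cytoplasm on small binding proteins. Crabp2 delivers retinoic acid to the retinoic acid receptors, Crabp1 is associated with its storage and breakdown, and Fabp5, an abundant epidermal fatty acid carrier, has been described as delivering it to the receptor Ppard instead. In epidermis, retinoic acid is known as a regulator of keratinocyte differentiation, and Crabp2 and Stra6 are known targets of retinoic acid.

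The deposited signals are linear intensities, and fresh and cultured arrays lie on different scales. The array median was 7.75 to 8 on the 6 cultured arrays and 64.1 to 64.8 on the 4 fresh arrays. Signals were therefore compared only within a condition, and between conditions only by their percentile among all probe sets of the same array. The changes between genotypes were also compared across conditions. The highest signal was 111660 to 123446 on cultured arrays and 31541 to 32618 on fresh ones, so the scales differed in range too. The part of the scales in those differences of log2 changes was not tested. The correlation across probe sets between arrays of 1 group was 0.990 to 0.996 for cultured cells and 0.976 to 0.991 for fresh ones. Rhoa, the targeted gene, had 3 probe sets, of which 1 did not pass the filter in either condition. The other 2 read 7628 to 8209 and 10199 to 10811 in cultured cells labelled RhoA-KO, against 9240 to 11249 and 11512 to 15352 in those labelled Wildtype. In fresh cells they read 4296 to 4398 and 1875 to 1945 in those labelled RhoA-KO, against 3526 to 4059 and 1443 to 1811 in those labelled Wildtype, so they were higher under the RhoA-KO label. None of these differences passed (limma adjusted p = 0.156 to 0.494). The position of the Rhoa probes in or outside the floxed stretch is not given in the sources used here, so they do not settle whether the labels hold, and each genotype named below is that of the label. Basal keratinocyte markers summed to 203510 to 217977 on cultured RhoA-KO arrays and 176223 to 216174 on cultured Wildtype arrays, and to 97556 to 97873 on fresh RhoA-KO and 100455 to 102313 on fresh Wildtype arrays. Fresh RhoA-KO replicate 2 stood apart. Its 11 hair follicle markers summed to 43286, against 6068 on the other fresh RhoA-KO array and 7955 and 6939 on the fresh Wildtype arrays. Melanocyte markers summed to 1484 and 4891 on fresh RhoA-KO arrays, replicate 2 the higher, against 1293 and 1185 on the fresh Wildtype arrays, and Langerhans cell and myeloid markers to 13229 and 6359, replicate 2 the lower, against 19926 and 15742. The tested members' results in fresh cells are therefore given with and without that array.

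**Figure D1:**
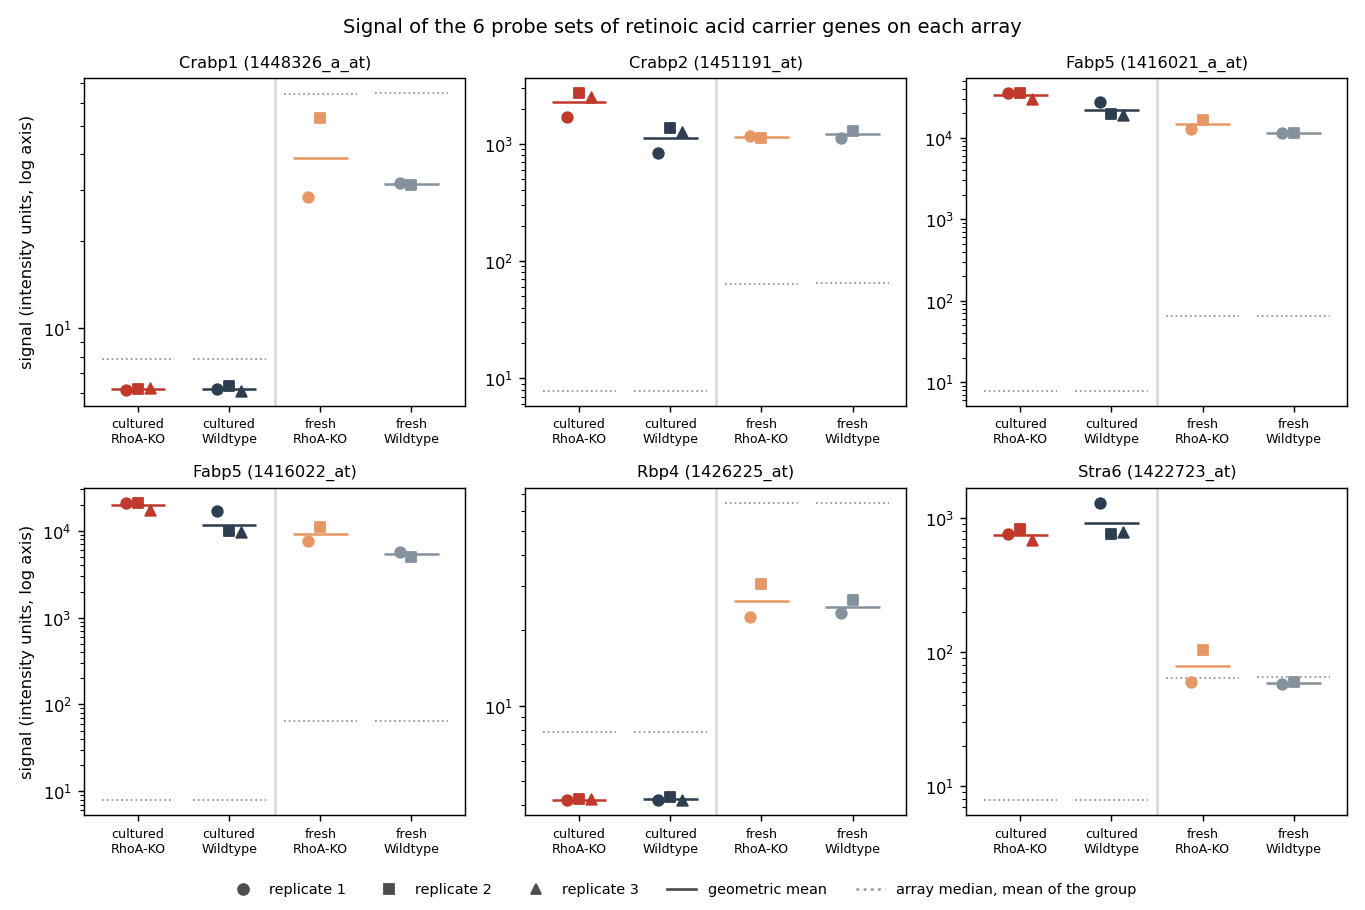
Signal of each member probe set on each array (vertical log axis, intensity units), by group; symbols mark the replicate number, solid lines the geometric mean and dotted lines the array median. Crabp2 and both Fabp5 probe sets lay far above the array median in all 4 groups, Stra6 lay far above it only on the cultured arrays, and Crabp1 and Rbp4 lay below it on every array.

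Of the carriers inside the cell, Crabp2 was higher on every cultured RhoA-KO array than on any cultured Wildtype array, without passing the test. Its signal was 1689, 2696 and 2524 in cultured RhoA-KO replicates 1 to 3, against 842, 1355 and 1266 in cultured Wildtype replicates 1 to 3. Replicate 1 was the lowest array in both groups, and the groups did not overlap. The change was 2.00-fold (log2 change 1.0, SE 0.25, unadjusted 95% interval 0.37 to 1.62), with a limma adjusted p = 0.175 over 22682 probe sets and 3 arrays per group. The call threshold of an adjusted p under 0.05 was passed by 0.273% of the probe sets tested in culture, and 4.58% of them had a p as small as that of Crabp2 or smaller.

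In fresh cells Crabp2 was close to level between the genotypes. It read 1170 and 1115 on the fresh RhoA-KO arrays, against 1125 and 1296 on the fresh Wildtype arrays. The groups overlapped, with the highest and the second lowest values both in Wildtype cells. The log2 change was -0.08 (SE 0.11, unadjusted 95% interval -0.36 to 0.20, limma adjusted p = 0.790), and it was -0.05 without fresh RhoA-KO replicate 2. The log2 change of Crabp2 in culture exceeded that in fresh cells by 1.08 (SE 0.28, unadjusted 95% interval 0.44 to 1.72), and by 1.04 without fresh RhoA-KO replicate 2. That difference did not pass either (adjusted p = 0.111 from both limma fits), where 0.879% of the 18773 probe sets tested in both conditions passed and 7.3% had a larger effect in culture at an unadjusted p under 0.05.

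Fabp5, the epidermal fatty acid binding protein, was among the brightest genes on every array. Its 2 probe sets differ in brightness, and the brighter, whose identifier ends in _a_at, read 34822, 34943 and 29930 in cultured RhoA-KO cells, against 27673, 19556 and 19124 in cultured Wildtype cells. The groups did not overlap, and Wildtype replicate 1 came nearest to the RhoA-KO arrays. The change was 1.52-fold (log2 change 0.61, SE 0.16, unadjusted 95% interval 0.22 to 0.99, with 3 arrays a group and a limma adjusted p = 0.178).

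The dimmer Fabp5 probe set, whose identifier ends in _at alone, gave 21046, 20895 and 17443 in cultured RhoA-KO cells, against 17043, 9854 and 9639 in cultured Wildtype cells. Again no values overlapped, and Wildtype replicate 1 was again the nearest to the RhoA-KO arrays. The change was 1.68-fold (log2 change 0.75, SE 0.24, limma adjusted p = 0.233). Both probe sets thus gave the same direction in culture and neither passed.

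In fresh cells Fabp5 read higher on both arrays labelled RhoA-KO as well. The brighter probe set read 12931 and 16642 in fresh RhoA-KO cells, against 11236 and 11261 in fresh Wildtype cells (1.30-fold, log2 change 0.38, SE 0.12, limma adjusted p = 0.331). The dimmer probe set read 7696 and 11049 in fresh RhoA-KO cells, against 5771 and 4981 in fresh Wildtype cells (1.72-fold, log2 change 0.78, SE 0.18, limma adjusted p = 0.289). The groups did not overlap for either probe set. RhoA-KO replicate 2, the array with the highest sum of hair follicle markers, was the highest in both. Without that array the log2 changes were 0.20 and 0.52, and with it as the only RhoA-KO array they were 0.57 and 1.04. The Fabp5 direction thus held without that array while its size depended on it. These fits with 1 RhoA-KO array assume that it varies like the Wildtype arrays, and the part of the hair follicle transcripts in the Fabp5 signal was not tested.

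A difference between conditions in the Fabp5 change did not pass. The difference of the log2 changes, culture minus fresh, was 0.22 for the brighter probe set (unadjusted 95% interval -0.22 to 0.66, limma adjusted p = 0.583) and -0.03 for the dimmer (-0.69 to 0.62, adjusted p = 0.962). Without fresh RhoA-KO replicate 2 these differences were 0.40 and 0.23 (adjusted p = 0.329 and 0.723). The intervals still leave room for differences of about the size of the changes themselves. The 2 probe sets moved together across the 10 arrays, with a Pearson r of 0.975 over arrays after the mean of each condition was subtracted, while Crabp2 correlated with them at 0.43 and 0.30.

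**Figure D2:**
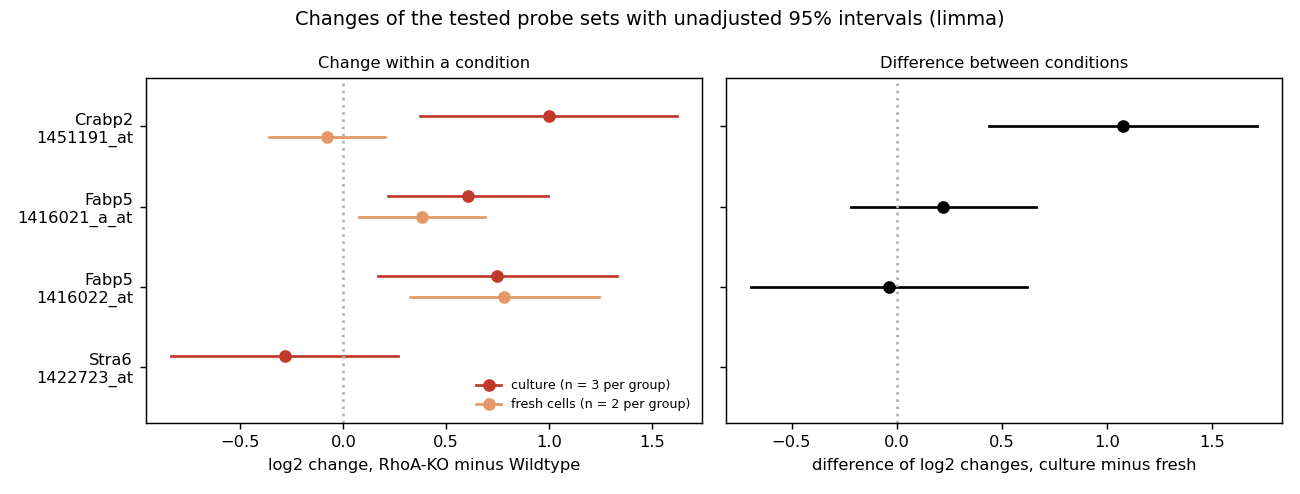
Log2 change, RhoA-KO minus Wildtype, of each tested member probe set in culture and in fresh cells (left), and the difference of the changes, culture minus fresh (right); bars are unadjusted 95% intervals. Crabp2 was at 1.0 in culture and -0.08 in fresh cells, while the 2 Fabp5 probe sets lay above 0 in both conditions.

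The balance between both carriers was taken as the log2 signal of Crabp2 minus that of Fabp5 on the same array. Only its change between groups is read, since probe sets differ in brightness and the value says nothing of which protein is more abundant. With the brighter Fabp5 probe set it was -4.37, -3.70 and -3.57 on the cultured RhoA-KO arrays, against -5.04, -3.85 and -3.92 on the cultured Wildtype arrays. Replicate 1 was the lowest in both groups and the groups overlapped. The means were -3.88 ± 0.43 in cultured RhoA-KO cells and -4.27 ± 0.67 in cultured Wildtype cells (SD, n = 3 each), a shift of 0.39 towards Crabp2 with an SE over arrays of 0.46. Without Wildtype replicate 1 the shift was 0.01, so it rested on that array. Crabp2 and Fabp5 both read higher in cultured RhoA-KO cells, and their balance moved by less than the spread between arrays.

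In fresh cells the balance read lower, towards Fabp5, on both arrays labelled RhoA-KO. It was -3.47 and -3.90 on the fresh RhoA-KO arrays, against -3.32 and -3.12 on the fresh Wildtype arrays. These values did not overlap, which in fresh cells held for 46.9% of all probe sets tested. The means were -3.68 ± 0.31 in fresh RhoA-KO cells and -3.22 ± 0.14 in fresh Wildtype cells (SD, n = 2 each), a shift of -0.46 with an SE of 0.24. The shift was -0.25 without RhoA-KO replicate 2. With the dimmer Fabp5 probe set the shift was 0.25 (SE 0.55) in culture and -0.86 (SE 0.36) in fresh cells, in the same directions. The positive shift in culture again rested on Wildtype replicate 1, at -4.34. The other cultured Wildtype arrays, at -2.86 and -2.93, lay above the cultured RhoA-KO mean of -3.13. No test was made of the balance, as it combines chosen members.

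**Figure D3:**
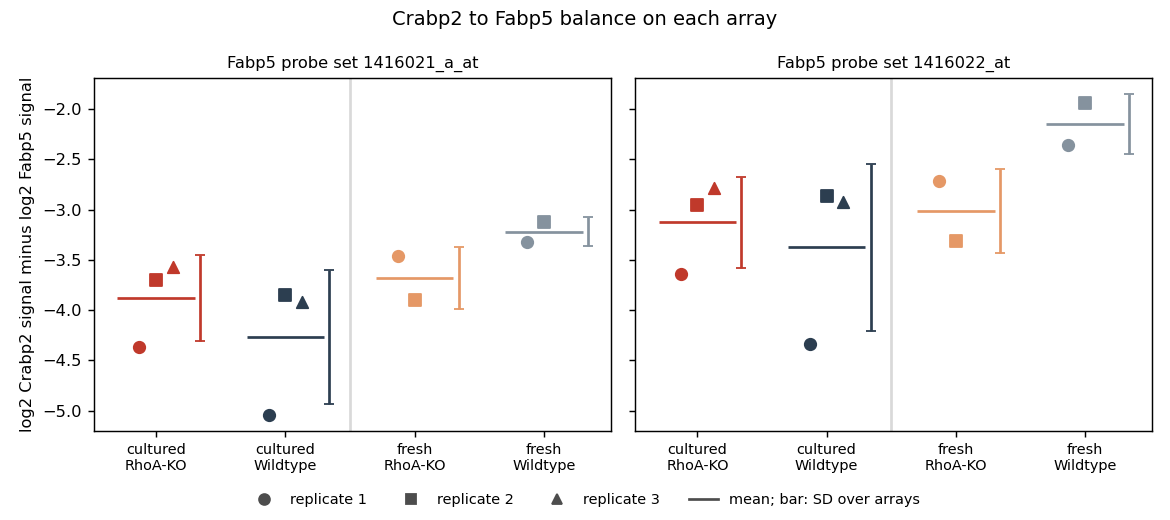
Crabp2 to Fabp5 balance (log2 Crabp2 signal minus log2 Fabp5 signal) on each array, for the brighter (left) and the dimmer (right) Fabp5 probe set; lines are group means and bars the SD over arrays. The cultured groups overlap, with replicate 1 lowest in both, and the fresh RhoA-KO arrays lie below both fresh Wildtype arrays.

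Stra6, the receptor for the Rbp4 and retinol complex, was measured well above the array median only in culture. It read 751, 819 and 685 on the cultured RhoA-KO arrays, against 1291, 755 and 783 on the cultured Wildtype arrays. Wildtype replicate 1 was the highest array and all others lay between 685 and 819, so the groups overlapped. The log2 change was -0.29 (SE 0.22, unadjusted 95% interval -0.84 to 0.27, limma adjusted p = 0.586), and -0.04 without Wildtype replicate 1.

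In fresh cells Stra6 read 59.5 and 104 on the RhoA-KO arrays, against 57.6 and 59.5 on the Wildtype arrays. Only RhoA-KO replicate 2, the array with the highest sum of hair follicle markers, was above its array median. The probe set did not enter the test in fresh cells. By rank, Stra6 stood at percentile 82.4, 82.9 and 81.5 on cultured RhoA-KO arrays and 86.5, 82.4 and 82.5 on cultured Wildtype arrays, against 48.2 and 59.0 on fresh RhoA-KO and 47.3 and 48.2 on fresh Wildtype arrays. The lowest cultured rank was 22.5 percentile points above the highest fresh rank. A gap of 20 points or more in that direction, a size chosen after these ranks were seen, was found for 12.3% of all probe sets, and the other 5 member probe sets had none. On cultured arrays 53.9% to 54.3% of all probe sets read below 10, against 0.10% to 0.14% on fresh arrays. The part of that difference in the ranks was not tested.

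Stra6 is named for its stimulation by retinoic acid, and its start sites are shown because it was the member whose rank differed most between cultured and fresh arrays. RefSeq sequences of assembly GRCm38.p6, from 250 bases before to 50 bases after each start, were matched for Crabp1, Rbp4 and Stra6, and not for Crabp2 and Fabp5. The half-site that retinoid receptors bind was searched on both strands as AGGTCA, with AGTTCA, then with GGGTCA and last with GGTTCA as its variants, singly and as a pair on the same strand with 1, 2 or 5 bases between. A single half-site lay in 1 of the 4 Stra6 windows, in 1 of 2 for Rbp4 and not in that of Crabp1, and 43.7% of 32851 such windows of all genes held one. No member window held a pair, against 0.588% of all windows. A match describes letters and not a bound site. The windows of the first start listed for Stra6 and of the start with the half-site, in capitals, 15 to 20 bases after the start, were as follows.
Stra6 window chr9:58128838-58129137 (+ strand): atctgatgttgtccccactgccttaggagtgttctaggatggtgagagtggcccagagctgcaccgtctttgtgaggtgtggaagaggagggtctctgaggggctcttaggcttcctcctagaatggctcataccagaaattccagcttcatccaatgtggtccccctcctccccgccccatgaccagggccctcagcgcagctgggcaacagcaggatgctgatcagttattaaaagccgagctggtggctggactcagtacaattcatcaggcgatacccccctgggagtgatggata
Stra6 window chr9:58133825-58134124 (+ strand): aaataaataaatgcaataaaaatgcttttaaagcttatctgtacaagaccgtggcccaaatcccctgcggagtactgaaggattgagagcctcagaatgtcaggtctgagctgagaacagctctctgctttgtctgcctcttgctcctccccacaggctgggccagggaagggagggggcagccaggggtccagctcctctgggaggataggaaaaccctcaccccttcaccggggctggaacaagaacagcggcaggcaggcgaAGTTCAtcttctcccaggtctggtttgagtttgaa

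Rbp4, the retinol carrier made mainly by liver and fat, was below the array median on every array. It read 4.20, 4.22 and 4.23 on the cultured RhoA-KO arrays, against 4.21, 4.32 and 4.18 on the cultured Wildtype arrays. Fresh RhoA-KO arrays gave 22.6 and 30.6 and fresh Wildtype arrays 23.3 and 26.5. The genotypes overlapped in both conditions, and the values lay between percentile 9.14 and 25.8 of their arrays.

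Crabp1, which in skin is known from dermal and hair follicle mesenchyme, was also below the array median throughout. It read 6.13, 6.19 and 6.22 on the cultured RhoA-KO arrays, against 6.18, 6.31 and 6.09 on the cultured Wildtype arrays. In fresh cells it read 28.3 and 53.0 on the RhoA-KO arrays, against 31.7 and 31.2 on the Wildtype arrays, with RhoA-KO replicate 2 the highest. Rbp4 and Crabp1 therefore entered no test, and levels below the array median were not read as expression. The fibroblast and dermal papilla markers without Crabp1 summed to 376 to 483 on cultured RhoA-KO arrays against 157 to 208 on cultured Wildtype arrays, and 5 of the 11 lay below the array median on every array of either group. In fresh cells they summed to 9327 to 11134 in RhoA-KO against 8260 to 10090 in Wildtype cells. In bulk samples, fewer cells of a type and less RNA per cell cannot be told apart.

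In all, 4 of 6 member probe sets were tested in culture and 3 in fresh cells, and limma called 0 of them in either condition. By limma, 3 in culture were at an unadjusted p under 0.05, all higher in RhoA-KO cells, where 7.16% of all tested probe sets were higher at that level. The groups did not overlap, with RhoA-KO higher, for the same Crabp2 and Fabp5 probe sets, against 10.1% of all tested. In fresh cells the 2 Fabp5 probe sets were higher at an unadjusted p under 0.05, against 6.01% of all tested, and their groups did not overlap, against 23.5%. The 2 Fabp5 probe sets stand for 1 gene and are not independent. Limma called 0% of all probe sets tested in fresh cells, where 12.9% were at an unadjusted p under 0.05 in either direction.

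By rank, the brighter Fabp5 probe set stood between percentile 99.2 and 99.4 on cultured RhoA-KO arrays and between 98.6 and 99.2 on cultured Wildtype arrays. On fresh arrays it stood at 99.6 and 99.7 in RhoA-KO and at 99.5 and 99.4 in Wildtype cells. Crabp2 stood at 88.7, 91.8 and 91.4 on cultured RhoA-KO and 82.9, 87.1 and 86.4 on cultured Wildtype arrays, against 90.8 and 90.5 on fresh RhoA-KO and 90.4 and 91.8 on fresh Wildtype arrays. The cultured Wildtype arrays thus held the lowest ranks of Crabp2, and the cultured RhoA-KO ranks overlapped those of fresh cells. These ranks are descriptions and were not tested.

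The genes most like Crabp2 across the 10 arrays, with the mean of each condition subtracted, were Sdr16c6 (Pearson r = 0.994), Gdpd1 (0.985), Kctd4 (0.984), Lce1a1 (0.984) and Acer1 (0.975), out of 9801 genes compared. Sdr16c6 encodes a retinol dehydrogenase of the skin, Lce1a1 a late cornified envelope protein and Acer1 a ceramidase of the differentiated epidermis. Sdr16c6 read 305, 729 and 725 on the cultured RhoA-KO arrays, against 73.2, 200 and 191 on the cultured Wildtype arrays, so replicate 1 was again the lowest in both groups. In fresh cells it read 1997 and 1749 in RhoA-KO, against 1651 and 1985 in Wildtype cells. None of the 5 passed in culture, with log2 changes of 1.42 to 4.55 and limma adjusted p of 0.113 to 0.189. Their rise in culture and the replicate order shared with Crabp2 follow from choosing them for that likeness on the same arrays. In fresh cells their log2 changes ran from -1.01 for Lce1a1 to 0.10 for Acer1, and none passed.

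The genes most like Fabp5 were others. For the brighter probe set they were Duox1, which encodes an epithelial oxidase (r = 0.965), Rnmt, an mRNA capping enzyme gene (0.961), Rgs3, a G protein regulator gene (0.945), the transcription factor gene Klf2 (0.941) and Mpdu1 (0.937). For the dimmer they were Igsf3 (0.961), Acp6 (0.956), Gtf2f1 (0.952), Mpdu1 (0.949) and Bmp7 (0.947). None of them passed in either condition. Their log2 changes were above 0 in both, which follows from choosing them for likeness to Fabp5 on the same arrays. These correlations describe 10 arrays, and genes on the same arrays share each array's preparation and scaling.

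Like Crabp2, the sum of suprabasal keratinocyte markers was higher on every cultured RhoA-KO array than on any cultured Wildtype array, with replicate 1 the lowest of each group. The 12 markers summed to 53526, 64300 and 62240 on cultured RhoA-KO replicates 1 to 3, against 38580, 45710 and 45870 on cultured Wildtype replicates 1 to 3. All 11 that entered the test in culture were at a log2 change above 0, against 47.2% of all probe sets tested, and 2 of them passed, against 0.273% of all. In fresh cells the sums were 113861 to 117799 in RhoA-KO and 112049 to 118397 in Wildtype cells, and 6 of the 12 tested were higher, against 49.9% of all. Basal markers were also at a log2 change above 0 in culture for 7 of 7 tested, with 0 called by limma, against the same 47.2% and 0.273%. Sebaceous gland markers ran the other way, summing to 4688 to 6241 on cultured RhoA-KO arrays and 7424 to 8783 on cultured Wildtype arrays. Of the 4 tested in culture, 1 was higher and 3 were lower, with 0 called by limma. In fresh cells their sums were lower in RhoA-KO as well, 9860 to 10114 against 11334 to 11974 in Wildtype cells. The part of the share of suprabasal cells in the Crabp2 signal was not tested.

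**Figure D4:**
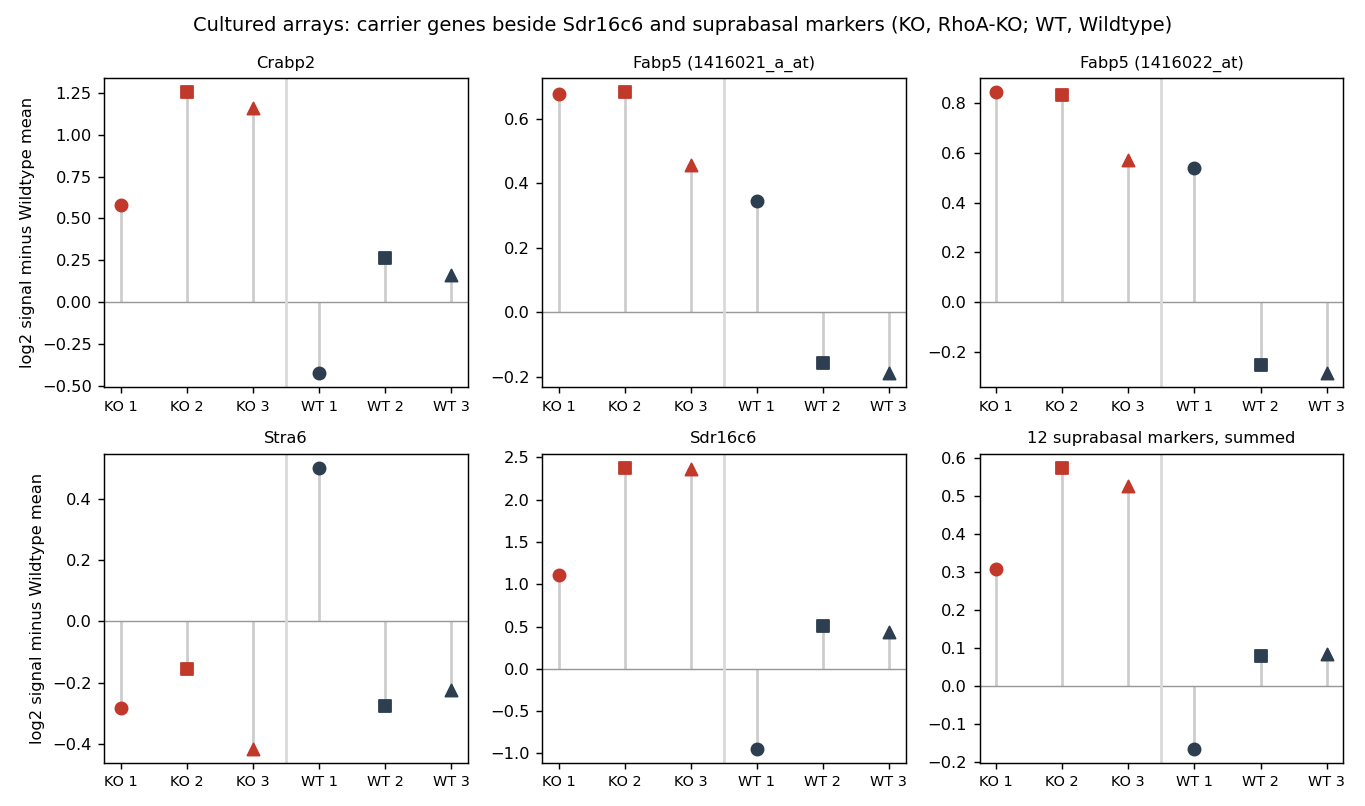
Log2 signal on each cultured array, relative to the mean of the 3 Wildtype arrays, for Crabp2, Fabp5 and Stra6, for Sdr16c6, and for the sum of 12 suprabasal markers. Crabp2, Sdr16c6 and the marker sum have replicate 1 lowest in both groups, whereas Fabp5 and Stra6 have Wildtype replicate 1 as the highest Wildtype array. Sdr16c6 was chosen for its likeness to Crabp2 on these arrays.

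The wider retinoid and lipid carrier pathway was described with 6 lists of 111 genes besides the members, of which 101 had a probe set with 1 symbol. In culture 60 were tested and limma called 0, with 8 higher and 6 lower at an unadjusted p under 0.05, where 7.16% and 8.49% of all tested probe sets were. In fresh cells 67 were tested and limma called 0, with 1 higher and 9 lower at that level, against 6.01% and 6.89% of all tested. The 9 lower include Ces1d, which entered the test only through the Wildtype arrays and so had to differ. Values below are means ± SD in signal units, n = 3 per group in culture and n = 2 in fresh cells.

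Among uptake genes and other carriers, 3 of 12 were tested in culture (1 higher, 2 lower, median log2 change -0.05) and 5 in fresh cells (4 higher, 1 lower, median 0.27), against medians over all tested probe sets of -0.0068 in culture and -0.00034 in fresh cells. Lpl, the lipoprotein lipase gene, read 118 ± 48.0 in cultured RhoA-KO and 263 ± 95.7 in cultured Wildtype cells (limma adjusted p = 0.266). In fresh cells it went the other way, at 358 ± 27.4 in RhoA-KO and 283 ± 68.4 in Wildtype cells (limma adjusted p = 0.497). The log2 change of Dgat1, which encodes an enzyme that esterifies retinol and diacylglycerol, was 0.24 in culture and 0.27 in fresh cells, that of the lipoprotein receptor gene Lrp1 -0.05 in culture, and that of the retinol binding protein gene Rbp2 0.54 in fresh cells, none of which passed. Ttr, the blood partner of Rbp4, was below the array median in culture and was at a log2 change of 0.06 in fresh cells (limma adjusted p = 0.900). Lrat, the retinol esterifying enzyme gene, read 4.07 to 4.10 on cultured RhoA-KO and 4.06 to 4.13 on cultured Wildtype arrays, below the array median. In fresh cells it read 57.7 and 110 on RhoA-KO arrays, against 20.9 and 23.0 on Wildtype arrays. These groups did not overlap, which with RhoA-KO higher held for 23.5% of all probe sets tested in fresh cells. RhoA-KO replicate 2 was again the highest, and only that array was above its median, so Lrat was not tested.

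Among retinoid enzymes, 19 of 33 were tested in culture (11 higher, 8 lower, median 0.14) and 25 in fresh cells (13 higher, 12 lower, median 0.04). Cyp26b1, which breaks down retinoic acid, was lower in RhoA-KO cells in both conditions without passing. It read 645, 541 and 774 on cultured RhoA-KO arrays, against 943, 1270 and 835 on cultured Wildtype arrays (log2 change -0.63, SE 0.20, limma adjusted p = 0.241). In fresh cells it read 96.0 and 94.2 on RhoA-KO arrays, against 132 and 163 on Wildtype arrays (log2 change -0.63, SE 0.16, limma adjusted p = 0.298). The groups did not overlap in either condition, as for 12.2% of probe sets tested in culture and 23.5% in fresh cells that were lower under the RhoA-KO label. Cyp26a1, its relative, was below the array median on the cultured and fresh arrays. The retinol dehydrogenase genes went opposite ways in culture without passing, Sdr16c5 with a log2 change of -0.99 (adjusted p = 0.180) and Sdr16c6 with 1.95 (0.187). Their log2 changes in fresh cells were 0.39 for Sdr16c5 and 0.05 for Sdr16c6, and neither passed. In fresh cells the cytochrome P450 gene Cyp2s1 was at -0.41 (adjusted p = 0.331). The carboxylesterase gene Ces1d read 34.6 and 35.6 on fresh RhoA-KO arrays, below the array median, against 65.7 and 65.3 on fresh Wildtype arrays, just above it. It entered the test only through the Wildtype arrays, so it had to differ, and no change is given. Ces1d is counted among the 12 lower enzymes in fresh cells.

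None of the retinoid and PPAR receptor genes that were tested passed in either condition. Of 9 retinoid and PPAR receptor genes, 5 were tested in culture (2 higher, 3 lower, median -0.05) and 6 in fresh cells (4 higher, 2 lower, median 0.03). Rarg, the main retinoic acid receptor gene of epidermis, read 431 ± 10.4 in cultured RhoA-KO and 491 ± 84.0 in cultured Wildtype cells, and 1149 ± 28.7 in fresh RhoA-KO and 1163 ± 23.5 in fresh Wildtype cells. Ppard read 1512 ± 36.8 in cultured RhoA-KO and 1574 ± 226 in cultured Wildtype cells, and 209 ± 7.94 in fresh RhoA-KO and 182 ± 8.13 in fresh Wildtype cells. The log2 changes in culture were -0.40 for the partner receptor gene Rxra, 0.16 for Rxrb and 0.08 for Rara, which lay near the array median, and in fresh cells -0.37 for Ppara and 0.10 for Rara. Their limma adjusted p were 0.323 to 0.789.

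Of the retinoic acid response genes, 16 of 24 were tested in culture (7 higher, 9 lower, median -0.02) and 14 in fresh cells (2 higher, 12 lower, median -0.14). Besides Cyp26b1, the growth arrest gene Btg2 was at 0.87 in culture and -0.43 in fresh cells (limma adjusted p = 0.210 and 0.249). The homeobox gene Meis2 was at 0.65 in culture and -0.17 in fresh cells (limma adjusted p = 0.239 and 0.807). Hoxb4 was at -0.40 in fresh cells (0.351). Of the PPAR target genes, 18 of 21 were tested in culture (10 higher, 8 lower, median 0.14) and 18 in fresh cells (6 higher, 12 lower, median -0.09). Plin2, a lipid droplet gene, read 8993, 10762 and 11038 on cultured RhoA-KO arrays, against 4586, 5832 and 5241 on cultured Wildtype arrays, with no overlap (log2 change 0.98, SE 0.12, limma adjusted p = 0.0608). No overlap with RhoA-KO higher held for 10.1% of all probe sets tested in culture. In fresh cells Plin2 read 1495 and 1585 in RhoA-KO, against 1630 and 1570 in Wildtype cells, and the groups overlapped. Txnip, a thioredoxin inhibitor gene, was at 1.17 in culture and -0.38 in fresh cells (limma adjusted p = 0.103 and 0.487). In fresh cells Vldlr was at 0.54, Pdk4, a kinase gene of fuel choice, at -0.71 and Angptl4 at -0.44 (limma adjusted p = 0.303 to 0.391).

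In the family of fatty acid and retinol binding proteins to which Crabp1, Crabp2 and Fabp5 belong, 3 of 11 others were tested in culture and 3 in fresh cells. Fabp4, the adipocyte relative of Fabp5, read 38.2, 248 and 402 on cultured RhoA-KO arrays, against 8.69, 8.16 and 7.18 on cultured Wildtype arrays. The groups did not overlap, which with RhoA-KO higher held for 10.1% of all probe sets tested in culture. Fabp4 did not pass (limma adjusted p = 0.124), and its Wildtype values lay near the array median, so no fold is given. In fresh cells Fabp4 read 37.3 and 1667 on RhoA-KO arrays, against 43.2 and 15.5 on Wildtype arrays. The high value was on the array with the highest sum of hair follicle markers. The adipocyte markers, which include Fabp4, summed to 56.9 to 421 on cultured RhoA-KO and 25.8 to 27.4 on cultured Wildtype arrays, and 4 of the 5 lay below the array median on every cultured array. Of the others tested, Fabp6, an intestinal bile acid carrier gene, was at 0.13 in culture and 0.15 in fresh cells, and Fabp3, the heart form, at 0.05 in fresh cells.

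**Figure D5:**
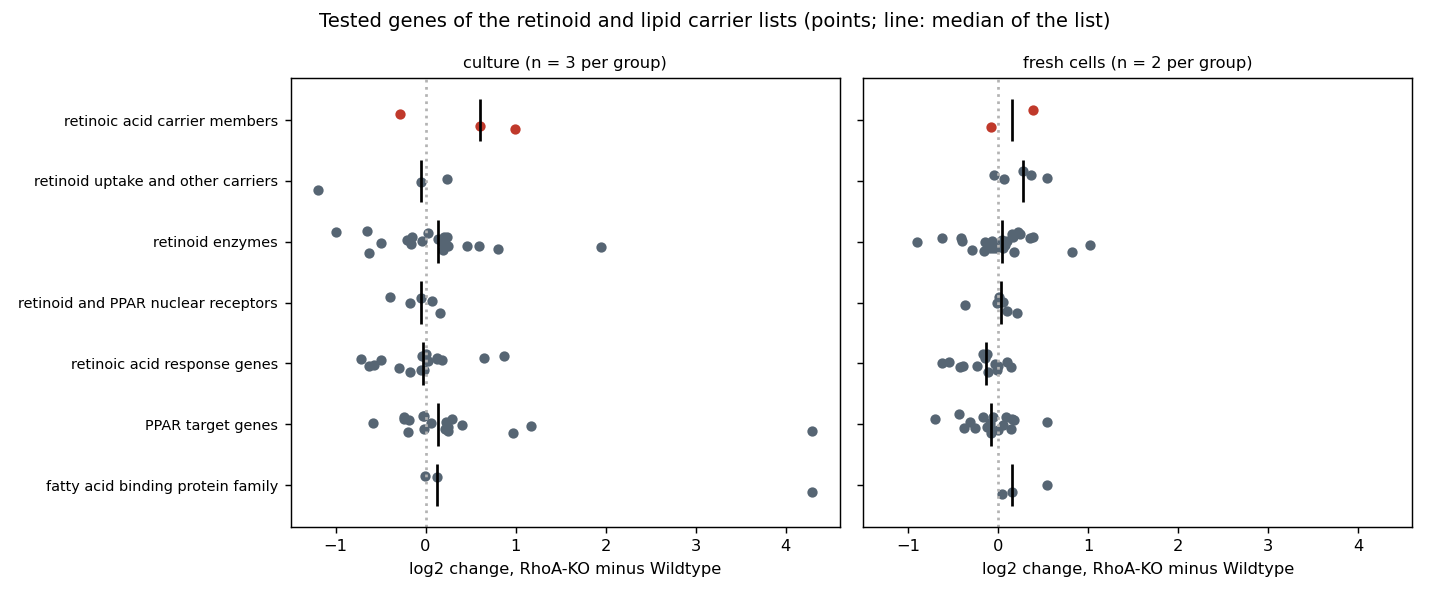
Log2 change, RhoA-KO minus Wildtype, of every tested gene of each list in culture (left) and in fresh cells (right); each point is a gene and black lines are list medians. No point passed the test. The point farthest to the left among the retinoid enzymes in fresh cells is Ces1d, which entered the test only through the Wildtype arrays. The point farthest to the right in both bottom lists in culture is Fabp4, whose Wildtype values lay near the array median, so its place on the axis is not a measured fold.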

How the data were processed

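Total RNA of 10 samples was amplified with an Affymetrix 3' labelling kit and hybridised to whole-genome mouse arrays, per the labels' protocols. The authors deposited 1 linear intensity per probe set and array, and the submitters' processing notes name MAS5, with version and scaling not given in the sources used here. Fresh and cultured arrays lie on different scales, so each condition was analysed alone. On cultured arrays 53.9% to 54.3% of probe sets read below 10, against 0.10% to 0.14% on fresh arrays. Whether both conditions were summarised in the same way was not tested.

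Gene symbols were those of the platform annotation, brought up to date by Entrez identifier from a RefSeq table. The probe set with the highest mean log2 intensity stood for a gene with several. Within a condition, only probe sets that exceeded the array median on 2 arrays or more were compared on the log2 scale by limma 3.58.1 in R 4.3.3 (lmFit, eBayes with trend, 2-sided), with Benjamini-Hochberg adjustment over all of them at 0.05. The KO effects of both fits were compared through their moderated standard errors. The procedure was tested on simulated data. Precision is limited by having only 2 or 3 arrays a group.

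Members and lists were chosen with earlier results of these data known. Named were the members, a fixed set of retinoid genes, the 3 list genes with the smallest p per condition, and the 5 genes most correlated with each member tested in both conditions. Alternatives were filters, a pseudocount, scaling between arrays, no trend, a replicate block, 1 fit over all arrays and each array left out.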

Additional observations from a re-analysis of the deposited data

How the results depend on the processing

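Limma called 62 probe sets in culture, 0 in fresh cells (2953 at an unadjusted p under 0.05) and 165 for the difference between conditions, and these counts depended on the setting. In culture there were 2 with no filter, 128 with 75th percentile centring, 7 with no trend, 17 with a replicate block and 547 in 1 fit over 10 arrays, which also called 447 in fresh cells. The difference gave 289 with 75th percentile centring, 108 with no trend, 289 with the replicate block and 78 in 1 fit over 10 arrays. Leaving out 1 array gave 0 to 95 in culture (0 without Wildtype replicate 3, RhoA-KO replicate 2 or RhoA-KO replicate 3, 1 without Wildtype replicate 2, 26 without Wildtype replicate 1, 95 without RhoA-KO replicate 1), 0 to 945 in fresh cells (945 without RhoA-KO replicate 1, 11 without RhoA-KO replicate 2) and 2 to 1302 for the difference (2 without cultured Wildtype replicate 3, 12 without fresh Wildtype replicate 2, 18 without cultured RhoA-KO replicate 3, 50 without fresh Wildtype replicate 1, 71 without cultured RhoA-KO replicate 2, 311 without cultured Wildtype replicate 1 and 1302 without fresh RhoA-KO replicate 1). The cause was not tested.

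For single member probe sets, 138 alternative values kept direction and side of the threshold, 5 changed direction and 3 newly passed (in fresh cells both Fabp5 probe sets without RhoA-KO replicate 1). In culture Crabp2 ranged from 0.78 to 1.21, the Fabp5 probe sets from 0.51 to 0.78 and from 0.61 to 1.02, and none passed under any alternative (adjusted p = 0.0508 to 0.489). When 1 array was left out, Crabp2 in fresh cells ranged from -0.18 to 0.022, above 0 only without Wildtype replicate 2. The difference between conditions for the dimmer Fabp5 probe set ranged from -0.30 to 0.23, and was 0.072 without fresh Wildtype replicate 2, 0.23 without fresh RhoA-KO replicate 2, 0.23 without cultured Wildtype replicate 1 and 0.054 without cultured RhoA-KO replicate 3. Same-numbered cultured arrays deviated together at r = 0.32, 0.08 and 0.25, and differently numbered ones at -0.30 to 0.17. The same-numbered fresh arrays were at -0.05, but with 2 arrays a group every fresh r has that size. The value of 0.08 lay within the range of differently numbered arrays and the labels name no animals, so the numbers were not taken as pairs. Whether they are pairs was not settled. With the replicate block Crabp2 had an adjusted p of 0.0521 in culture, and its difference between conditions passed (1.08, adjusted p = 0.0254). With the brighter Fabp5 probe set and 1 array left out, the balance shift ranged from 0.0075 (without Wildtype replicate 1) to 0.64 in culture. In fresh cells it ranged from -0.68 to -0.25 (without RhoA-KO replicate 2). With the dimmer Fabp5 probe set and all arrays it was -0.86 in fresh cells.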
